A study of Mus musculus with 6 samples.

Results

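The 7 genes described here, Slc4a1, Alas2, Fech, Klf1, Ermap, Car1 and Rhag, are genes of developing red blood cells that serve heme synthesis, the red cell membrane and their control. They were selected on their names and in part on earlier values of this contrast, from the 12393 genes of a cochlear array data set, with every probe set annotated to 1 of them alone, 12 of 20380 single-gene probe sets. Because the choice rested in part on the lower signal of Slc4a1 and Alas2 in the null pools, the differences of the 7 genes between genotypes are given as a description and without a test. RNA came from mouse cochleae at embryonic day 18.5, dissected with the otic capsule and without vestibular tissue. The 3 wild type samples carried Igf-1+/+ and the 3 null samples Igf-1-/-, and all came from matings of heterozygotes on a C57BL/6J background, with no treatment named. Igf1 encodes insulin-like growth factor 1. Each sample was a pool of 4 cochleae on 1 Affymetrix array, and the labels call the pools biological replicates 1 to 3. The titles and descriptions set the genotype, whereas the source label of the null pools reads as wild type. The titles also carry a number whose meaning is not stated, 14 for replicate 1 of both genotypes and 16 for the other 4 pools. The labels do not say how the allele was disrupted, nor the sex or litter of the embryos.

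Red cells mature from erythroblasts, which make large amounts of globin and of heme, the iron-containing ring that binds oxygen. Heme synthesis begins in the mitochondrion with an aminolevulinate synthase, encoded in erythroblasts by Alas2 and in other cells by Alas1, and ends there when ferrochelatase, the product of Fech, inserts iron. Band 3, the product of Slc4a1, exchanges chloride for bicarbonate across the red cell membrane and anchors the spectrin skeleton to it. The transcription factor genes Klf1 and Gata1 act on many genes of this program. In a dissected cochlea such RNA can come from blood in the vessels and from any blood-forming tissue left with the capsule. In RNA from whole tissue, fewer cells of a type and less RNA per cell cannot be told apart.

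The DNA upstream of these genes is shown because Gata1 and Klf1 are known to act through short sites in promoters. RefSeq (GRCm38.p6) windows are shown here for 4 of the 7 genes, Alas2, Klf1, Ermap and Rhag. Any member window on 1 chromosome was left out by the selection, while the counts over all windows kept that chromosome. The 4 windows shown may thus not be all that exist for the 7 genes. Each line gives the 250 bases before the annotated start of the gene, in the direction of transcription, with a GATA motif and a CACC box in capitals. The GATA motif was searched as AGATAA or TGATAA, which read TTATCT or TTATCA on the other strand. The CACC box, which factors of the Klf family can bind, was searched as CACCC, or GGGTG on the other strand.
Alas2, chrX:150547167-150547416, plus strand: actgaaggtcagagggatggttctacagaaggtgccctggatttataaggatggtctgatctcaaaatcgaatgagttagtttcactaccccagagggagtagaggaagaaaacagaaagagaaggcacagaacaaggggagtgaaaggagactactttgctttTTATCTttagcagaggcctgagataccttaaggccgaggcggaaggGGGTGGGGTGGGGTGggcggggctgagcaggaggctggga
Klf1, chr8:84901732-84901981, plus strand: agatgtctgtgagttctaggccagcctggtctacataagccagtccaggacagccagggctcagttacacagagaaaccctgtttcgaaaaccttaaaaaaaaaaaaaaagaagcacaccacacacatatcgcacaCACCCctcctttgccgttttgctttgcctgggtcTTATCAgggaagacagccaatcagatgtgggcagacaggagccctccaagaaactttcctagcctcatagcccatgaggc
Ermap, chr4:119189996-119190245, minus strand: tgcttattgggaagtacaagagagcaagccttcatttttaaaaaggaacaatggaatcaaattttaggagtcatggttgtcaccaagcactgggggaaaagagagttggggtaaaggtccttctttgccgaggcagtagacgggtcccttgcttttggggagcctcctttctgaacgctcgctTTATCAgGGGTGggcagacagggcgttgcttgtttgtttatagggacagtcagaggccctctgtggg
Rhag, chr17:40810899-40811148, plus strand: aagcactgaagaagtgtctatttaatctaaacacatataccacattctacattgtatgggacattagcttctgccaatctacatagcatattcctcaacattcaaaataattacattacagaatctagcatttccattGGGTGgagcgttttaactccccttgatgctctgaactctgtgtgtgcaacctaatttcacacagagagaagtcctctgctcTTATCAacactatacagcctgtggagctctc
Each of the 4 windows held 1 GATA motif, read on the other strand in every case. Of all 32851 windows of the same length, 16.6% held a GATA motif on either strand. Counted back from the start of the gene, the motif spanned bases -86 to -81 at Alas2, -80 to -75 at Klf1, -67 to -62 at Ermap and -31 to -26 at Rhag. The CACC box was also found in each of the 4 windows, 3 times in that of Alas2 between bases -40 and -26, and in 1 place each at Klf1 (-114 to -110), Ermap (-60 to -56) and Rhag (-112 to -108). It was held by 52% of all windows, and both motifs together by 7.11%. A longer Klf motif, CCNCNCCC or GGGNGNGG, which overlaps the CACC boxes of Alas2, was found at 4 places of the Alas2 window and in none of the other 3, against 45.9% of all windows. A match is a description of the letters and not evidence of a bound site. The motifs were chosen with these promoter sequences in view, and the shares of all windows include the chromosome left out for members. Nothing is therefore read from finding both motifs in all 4 windows.

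Levels below are log2 signals after quantile normalization, and differences are null minus wild type. A probe set was counted as above background on an array when its signal was higher than the 95th percentile of 71 probe sets of olfactory, vomeronasal and taste receptor genes on that array. That percentile lay between 3.51 and 4.24 on the 6 arrays, and 69.8% to 75.2% of all probe sets were above it. Of the 12 probe sets, 6 were above background on all 3 wild type arrays and 4 on all 3 null arrays. The 4 that were above it on all 6 arrays were the Alas2 probe set and 3 of the 4 Fech probe sets. A pair of Slc4a1 probe sets were above it on all wild type arrays only. Klf1 was above it on 1 wild type and 2 null arrays, Rhag on 1 null array, and Ermap and Car1 on none.

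**Figure D1:**
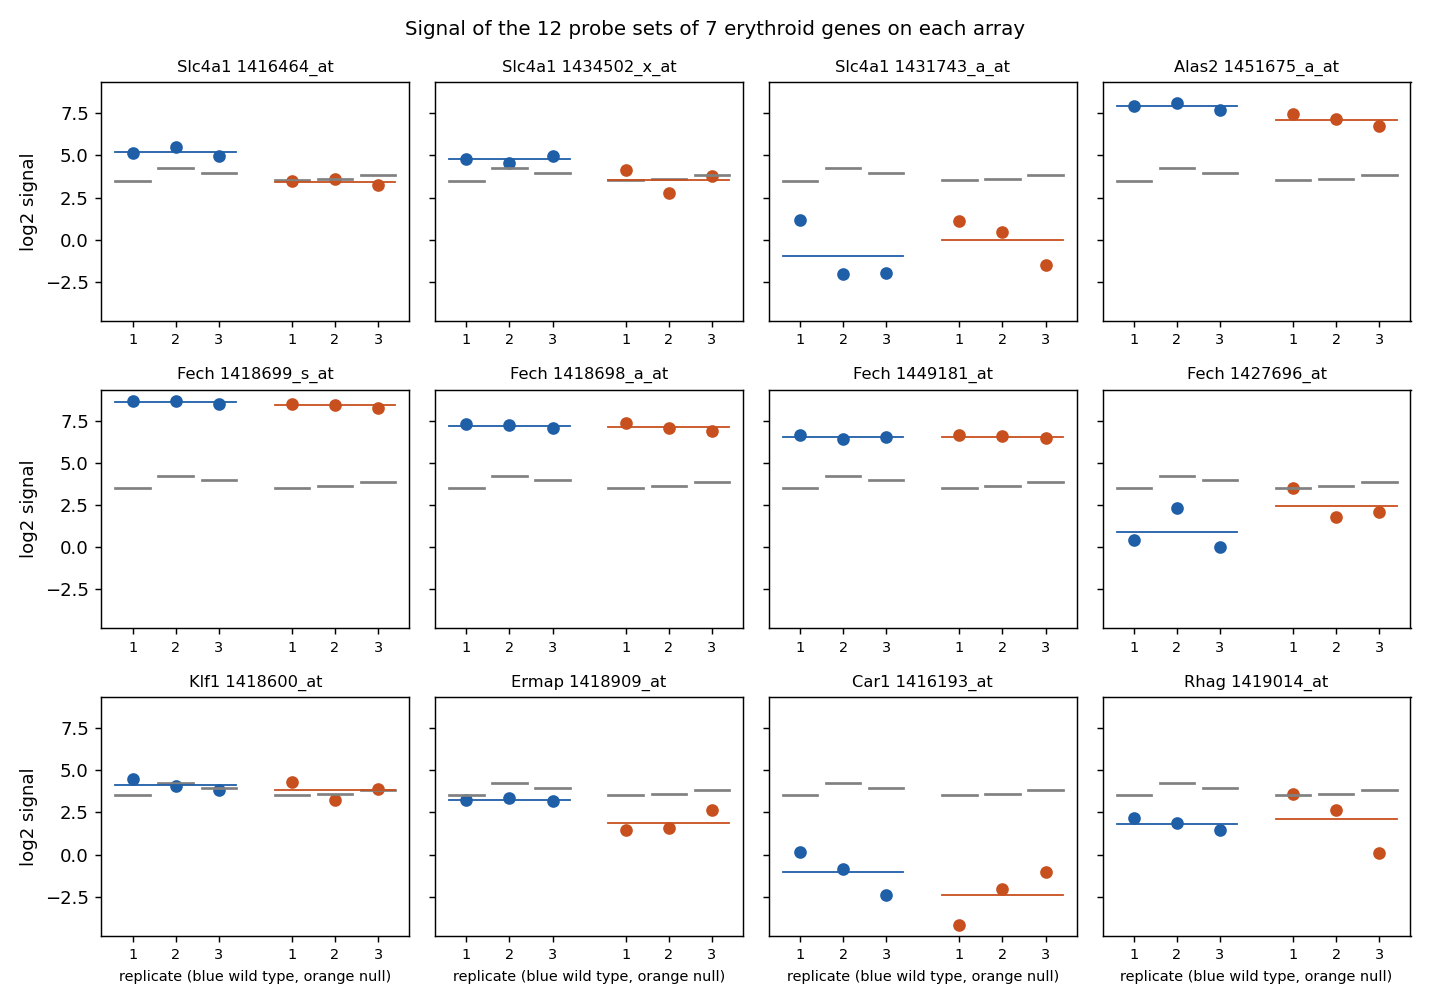
Log2 signal of each of the 12 probe sets on the 3 wild type arrays (blue) and the 3 null arrays (orange), with a horizontal line at each group mean and a grey step at the background of each array. Alas2 and 3 Fech probe sets lie above the grey steps on all 6 arrays, 2 Slc4a1 probe sets on the 3 wild type arrays, and Ermap and Car1 lie below them throughout.

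Alas2, which encodes the erythroid enzyme of the first step of heme synthesis, was measured by 1 probe set (1451675_a_at). Its log2 signal was 7.90, 8.11 and 7.68 on the wild type arrays, given here and below in the order of the replicate numbers, and 7.46, 7.13 and 6.73 on the null arrays. The highest null pool was below the lowest wild type pool, and the groups did not overlap. Wild type signal averaged 7.90 ± 0.22 (SD, n = 3) and null signal 7.11 ± 0.37 (SD, n = 3), a difference of -0.79 ± 0.23 (SE), or 0.577 of the wild type signal. Among the members it was the gene with a separation of the genotypes at a signal well above background in both groups. With single arrays left out the Alas2 difference ran from -0.97 to -0.60. Between the pools with title number 14, 1 of each genotype, it was -0.44, and between the 2 and 2 with title number 16 it was -0.97.

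Fech, which encodes the last enzyme of the same pathway, gave 3 bright and 1 dim probe set. At the brightest (1418699_s_at) the log2 signal was 8.66, 8.68 and 8.45 in wild type and 8.46, 8.43 and 8.26 in null pools. The groups overlapped, since the lowest wild type pool was below the highest null pool, and the difference was -0.21 ± 0.13 (SE) with a 95% interval from -0.53 to 0.11. At the other bright probe sets Fech differed by -0.09 ± 0.17 (1418698_a_at) and 0.01 ± 0.12 (1449181_at), again with overlapping groups. These differences were smaller than that of Alas2, a comparison that was not tested. The fourth (1427696_at) was within background on every array, with means of 0.91 and 2.45, and its difference of 1.54 ± 0.78 is not a measure of expression. Fech is needed for heme in all tissues, so its signal in a whole cochlea need not come from red cells.

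Slc4a1, the band 3 gene, had 3 probe sets. At 1416464_at the log2 signal was 5.16, 5.47 and 4.97 in wild type and 3.47, 3.60 and 3.23 in null pools. Each wild type array was above background and each null array below it, and the groups were 1.76 apart with an SE of 0.18 on the log2 scale. Because the null signal of Slc4a1 is within background, the size of the difference has only a lower limit. Set against the background of each null array, the wild type mean of 1416464_at, 5.20 ± 0.25 (SD, n = 3), was at least 2.89-fold higher. This is a point value without an interval, and it holds for this probe set only. That limit depends on what is taken as background: with the 90th percentile of the receptor genes 2 null arrays were above it and the ratio was 3.33, with the 99th percentile none was and it was at least 2.03-fold, and with the highest trp control all 3 were above it and the ratio was 3.4.

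The other Slc4a1 probe set with signal (1434502_x_at, of a type that can cross-hybridize with related sequences) read 4.80, 4.55 and 4.99 in wild type and 4.13, 2.75 and 3.77 in null pools. Here too every null pool was below every wild type pool, and 1 null array, replicate 1, remained above background. The difference was -1.23 ± 0.39 (SE), or 0.427 of the wild type signal, and it was -0.83 without null replicate 2. By title number it was -0.67 between the 2 pools with 14 and -1.51 among the 4 with 16, while 1416464_at of Slc4a1 differed by -1.68 and -1.80. The third Slc4a1 probe set (1431743_a_at) was within background on all 6 arrays, with readings from -2.04 to 1.16, and its difference of 0.97 ± 1.14 had the opposite sign.

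Ermap and Rhag encode further proteins of the red cell membrane. Ermap, a membrane protein of erythroblasts with an immunoglobulin-like domain, read 3.21, 3.33 and 3.15 in wild type and 1.46, 1.57 and 2.67 in null pools. The groups did not overlap, but all 6 readings were within background, so the difference of -1.33 ± 0.35 (SE) does not show a change in expression. Rhag, a glycoprotein of the Rh complex, read 2.16, 1.90 and 1.44 in wild type and 3.59, 2.65 and 0.12 in null pools. Its null pools spanned a wider range than the wild type pools and lay on both sides of them, with a difference of 0.29 ± 0.92. Only null replicate 1 was above background for Rhag, and its sign turned to -0.44 without that array.

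Klf1 and Car1 complete the set. Klf1, the transcription factor gene of the erythroid program, read 4.45, 4.05 and 3.82 in wild type and 4.30, 3.26 and 3.91 in null pools. These readings lay around the background of their arrays and overlapped between genotypes, with a Klf1 difference of -0.28 ± 0.32 (SE) that was 0 without null replicate 2. Car1, a carbonic anhydrase gene of red cells, was within background on every array. Its readings ran from -2.37 to 0.17 in wild type and from -4.15 to -1.01 in null pools, and the difference of -1.39 ± 1.03 has no interpretation as expression.

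**Figure D2:**
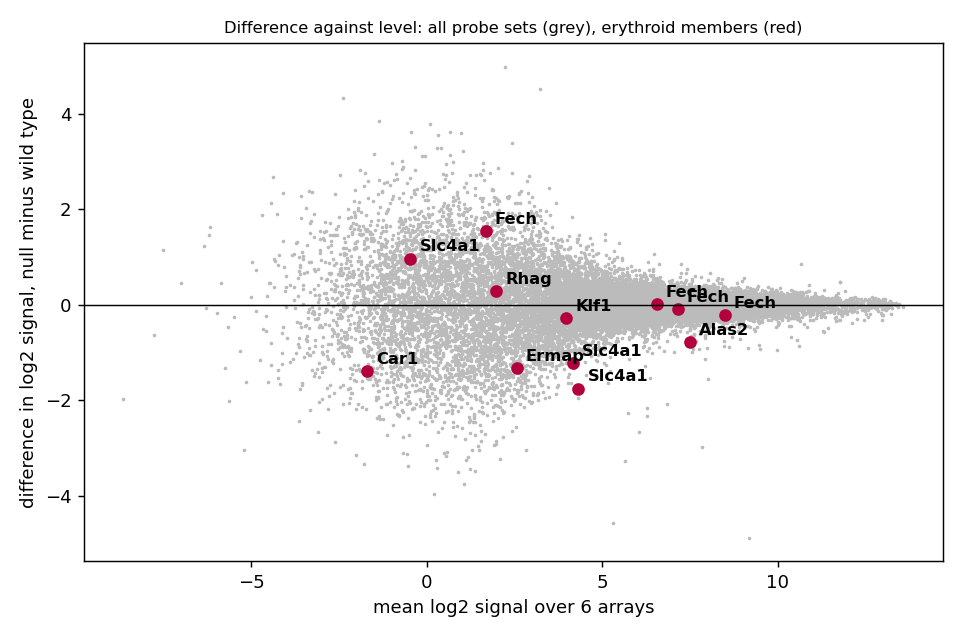
Difference in log2 signal (null minus wild type) against mean log2 signal over 6 arrays, with 1 grey point for each of 22626 probe sets and red points for the 12 member probe sets. Grey points spread widely at low signal and narrow as signal rises; Alas2 lies at -0.79, Slc4a1 (1416464_at) at -1.76 and the 3 bright Fech probe sets between -0.21 and 0.01, in the contrast that was used to choose the genes.

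Counted together, 4 of the 12 member probe sets (Alas2, Ermap and 2 of Slc4a1) had all null arrays below all wild type arrays, and none had them all above. Over all 22626 probe sets 5.33% had all null arrays below and 5.5% all above. The contrast was used to choose the genes, so nothing is read from the member count. By the brightest probe set of each gene, 6 of the 7 members had lower and 1 had higher null signal (7 and 0 with the values as deposited), and the median difference was -0.79 against 0.0056 over all 12393 genes. That member median is the value of Alas2, which was chosen in part by this contrast, so nothing is read from it either. Only Alas2 and Fech among these 7 were above background on all 6 arrays. With limma, 0% of all probe sets (0 of 22626) passed an adjusted p of 0.05, and 1131 had an unadjusted p below it.

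The rest of the red cell program was read in 6 lists of other genes, of which 68 of 85 were measured by a single-gene probe set. By the brightest probe set lower and higher genes were equal in number (34 each) and the median was -0.0047, close to that of all genes. None passed an adjusted p of 0.05 in limma over all probe sets, and 2 had an unadjusted p below it (Slc25a37 and Hmox1), against 4.45% of all genes. In 5 the null arrays were all below the wild type arrays (Slc25a37, Hmox1, Aco1, Sptb and Gypc), where 4.99% of all genes were, and in 2 all above (Ppox and Cat), where 5.58% were. Several of these were singled out after their values were seen. On all 6 arrays 48 of the 68 were above background. The split depends on the scaling: with the values as deposited, where the median of all genes was -0.145, 52 were lower and 16 higher, and with median centring 32 and 36. Set against the median of all genes, the median of the 68 was -0.010 after quantile normalization and -0.014 with either alternative.

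The other enzymes of heme synthesis showed no separation towards lower null signal. All 6 measured enzyme genes were above background on all 6 arrays, 1 was lower and 5 were higher (median 0.069), which turned to 5 lower and 1 higher (median -0.075) with the values as deposited. Alas1, the form used outside the erythroid line, had a wild type mean of 7.77 ± 0.20 (SD, n = 3) and a null mean of 7.82 ± 0.24 (SD, n = 3). Alad, the enzyme after Alas2 in the pathway, differed by 0.12 ± 0.11 (SE) and Ppox, the enzyme before Fech, by 0.23 ± 0.11. Ppox read 7.33, 7.25 and 7.36 in wild type and 7.49, 7.64 and 7.50 in null pools, with no overlap (adjusted p = 0.982 in limma).

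Of 15 measured genes that carry or handle iron and heme, 8 were lower and 7 higher (median -0.061), against 13 and 2 with the values as deposited and 6 and 9 (median 0.069) with median centring. Slc25a37, which encodes the mitoferrin that brings iron into the mitochondria of erythroblasts, read 8.01, 8.04 and 7.74 in wild type and 7.14, 7.42 and 7.32 in null pools. All null pools were below all wild type pools of Slc25a37, by -0.64 ± 0.14 (SE), or 0.643 of the wild type signal (adjusted p = 0.887 in limma). Hmox1, the heme oxygenase that breaks heme down, read 5.32, 5.83 and 5.61 against 4.85, 5.10 and 4.78, a difference of -0.68 ± 0.18 (adjusted p = 0.887 in limma). The transferrin receptor gene Tfrc, which takes up iron in many cell types, differed by 0.06 ± 0.15 at its brightest probe set. The brightest genes of the list, ferritin heavy chain Fth1, the mitochondrial carrier Slc25a39 and the iron-responsive aconitase Aco1, differed by -0.06 ± 0.15, -0.07 ± 0.12 and -0.07 ± 0.10.

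Of 16 measured genes of the red cell membrane and skeleton, 10 were lower and 6 higher (median -0.069), and 12 and 4 with the values as deposited. The brightest, the adducin gene Add1, the water channel gene Aqp1 and the glucose transporter gene Slc2a1, are used by many cells and differed by -0.08 ± 0.16, -0.12 ± 0.11 and -0.13 ± 0.21 (SE). The erythroid spectrin gene Sptb read 4.61, 3.70 and 3.71 in wild type and 2.83, 3.55 and 3.56 in null pools, above background on 1 array. Epb42, Icam4, Kel and Xk of this list were within background on all 6 arrays, as Car1 and Ermap were.

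Regulators of the erythroid line were divided, with 6 of 13 measured genes lower and 7 higher (median 0.037), or 9 and 4 (median -0.127) with the values as deposited. Gata1 read 5.33, 5.09 and 4.59 in wild type and 4.56, 4.93 and 4.41 in null pools, above background on all arrays, with overlapping groups and a difference of -0.37 ± 0.25 (SE). The cofactor gene Ldb1, the kinase gene Jak2 and Gata2, the brightest of this list, differed by 0.19 ± 0.16, 0.10 ± 0.11 and 0.13 ± 0.16. Of 12 red cell enzymes and genes of late maturation, 7 were lower and 5 higher (median -0.055), and 10 and 2 with the values as deposited. Their brightest members, the peroxiredoxin gene Prdx2, the exportin gene Xpo7 and the catalase gene Cat, differed by 0.07 ± 0.12, 0.12 ± 0.14 and 0.10 ± 0.10.

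**Figure D3:**
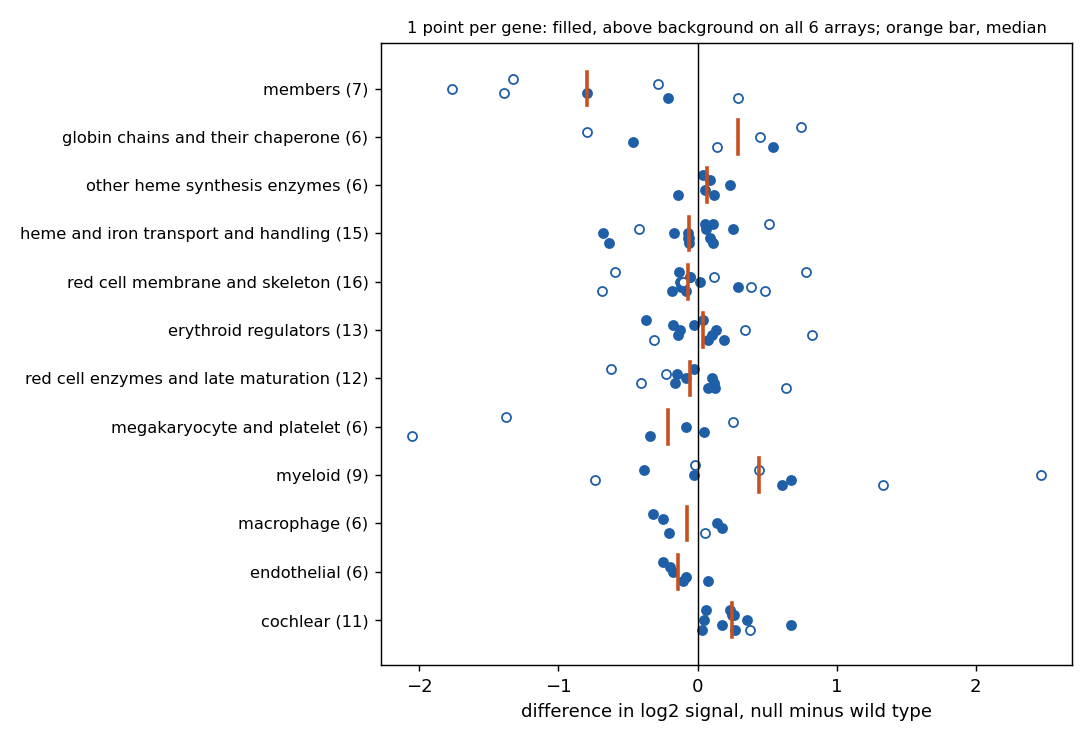
Difference in log2 signal (null minus wild type) of each measured gene, by list, with the number of genes in brackets; filled points are genes above background on all 6 arrays and orange bars are list medians. The member median of -0.79 is the value of Alas2, which was chosen in part by this contrast, so nothing is read from its place beside the other lists. The medians of the other 6 red cell lists lie between -0.069 and 0.29 and move with the scaling.

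Adult globin RNA gave some of the brightest probe sets of the arrays. The 4 brightest globin probe sets are annotated to several near-identical globin genes and are described as sets, not genes. At the set for beta globins (1417184_s_at) the log2 signal was 13.18, 13.18 and 13.07 in wild type and 13.15, 13.03 and 12.91 in null pools, a difference of -0.11 ± 0.12 (SE). The brighter sets for alpha globins differed by -0.06 ± 0.12 (1428361_x_at) and -0.04 ± 0.12 (1452757_s_at). These 3 sets were within 0.51 of the highest signal on the normalized scale. The dimmer set for alpha globins (1417714_x_at), 2.30 below that maximum, read 11.43, 11.82 and 11.46 in wild type and 11.43, 11.04 and 10.62 in null pools. Null replicate 1 of that set was at the wild type level and null replicates 2 and 3 were below it, with a difference of -0.54 ± 0.25 (adjusted p = 0.982 in limma). Whether signal near the top of the range was compressed was not tested.

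Null replicate 3 had the lowest signal of all 6 arrays for Alas2, for the brightest Fech probe set, for 1416464_at of Slc4a1 and for each of the 4 bright globin sets. Of the single-gene globin probe sets, Hbb-b2 differed by 0.55 ± 0.35 (SE) and the embryonic gene Hba-x by -0.46 ± 0.44, both above background and both with overlapping groups. The embryonic beta chain gene Hbb-bh1 was within background on all arrays at its 3 probe sets. Of the 6 measured genes of the globin list 2 fell on the lower and 4 on the higher side (median 0.29), and with the values as deposited 3 and 3 (median -0.014).

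**Figure D4:**
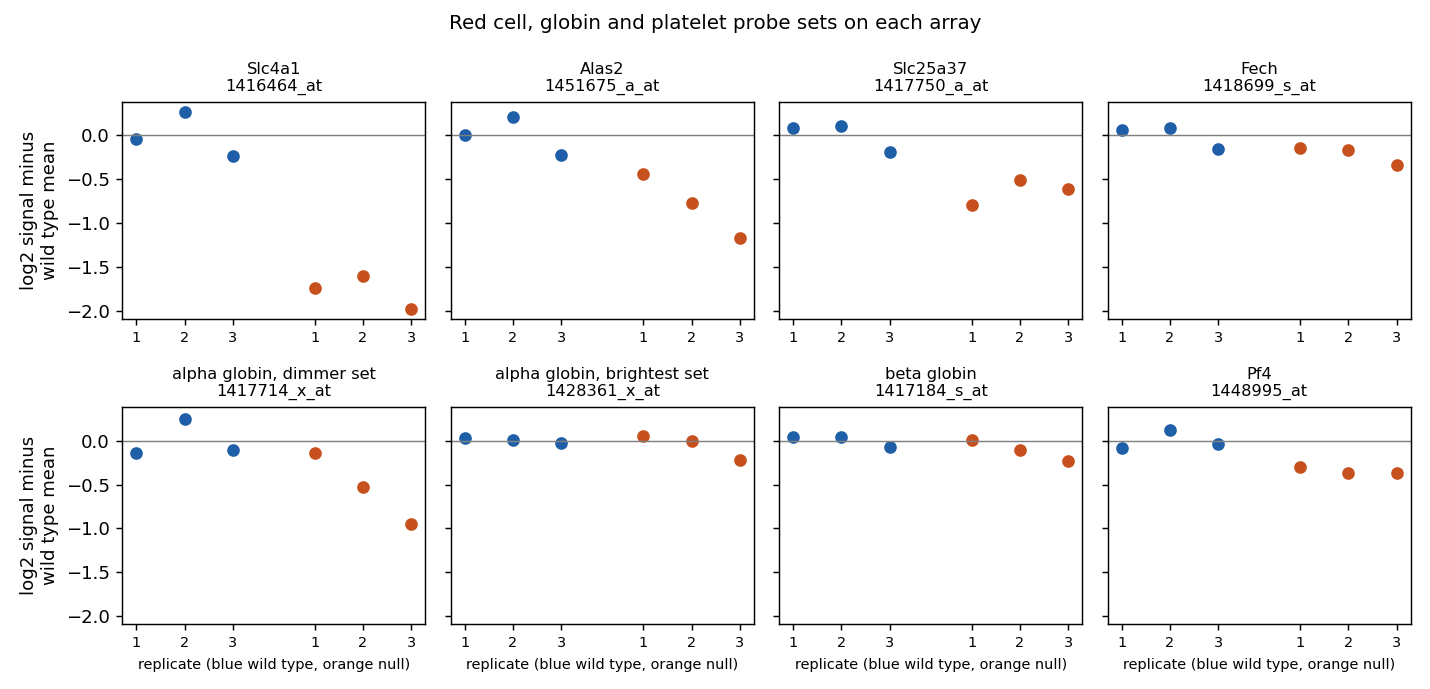
Log2 signal minus the wild type mean of the same probe set, for each wild type (blue) and null (orange) array, at 8 probe sets. Slc4a1, Alas2, Slc25a37 and Pf4 have all null arrays below the wild type arrays, the dimmer alpha globin set has null replicate 1 at the wild type level, and the brightest alpha and beta globin sets lie close to the wild type mean on all arrays.

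By Euclidean distance between profiles over the 6 arrays, each centred on its mean, the genes nearest to Alas2 were Ddit4 (distance 0.31), Gja1 (0.34) and Abhd3 (0.35). The Gja1 match was at 1415801_at, with a difference of -0.54, while a brighter Gja1 probe set differed by -0.37. Nearest to Slc4a1 at 1416464_at were Msl3l2 (0.75), Tnfrsf21 (0.93) and Dmp1 (0.97), among 15468 probe sets above background on at least 3 arrays. Slc4a1 and Alas2 were 1.26 apart, and Alas2 was closer to Fech (0.82) than to Slc4a1, since distance also measures the size of a difference. With 6 arrays many genes come near to any profile, so these distances are a description.

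Markers of other cells were read beside these results. Pf4, a chemokine gene of platelets and megakaryocytes, read 8.55, 8.76 and 8.60 in wild type and 8.34, 8.27 and 8.27 in null pools, with no overlap and a difference of -0.34 ± 0.11 (SE; adjusted p = 0.933 in limma). Of the 6 measured platelet genes 4 were lower and 2 higher, and all 6 lower with the values as deposited. Their summed signal ran from 9.14 to 9.32 (log2) in wild type and from 8.94 to 8.99 in null pools, and Gp5, Gp9 and Ppbp were within background. Pf4 carries most of that sum: without it the platelet sums were 7.46 to 7.67 and 7.37 to 7.64, which overlap. Among endothelial genes 5 of 6 had lower null signal (median -0.14; all 6 with the values as deposited), with sums of 9.90 to 10.09 and 9.89 to 10.00. Macrophage genes were evenly divided, 3 lower and 3 higher (4 and 2 with the values as deposited and with median centring), with sums of 10.67 to 10.71 and 10.49 to 10.80. Of 9 myeloid genes 4 were lower and 5 higher, with sums of 8.47 to 8.88 and 8.64 to 9.90, and Mpo, Elane, Prtn3 and Ctsg, all granule genes of early neutrophils, were within background. S100a8 and S100a9 were highest in null replicate 1, at 8.65 and 8.36. Cochlear genes were present as labelled, 10 of 11 above background on all arrays, with Otos the exception, and all 11 were higher in the null pools (median 0.25), or 8 of 11 with the values as deposited, with sums of 11.06 to 11.59 and 11.39 to 11.88. The part of other cell types in the differences of Alas2 and Slc4a1 was not tested.

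Over the whole series, array medians of the deposited values ran from 5.61 (null replicate 1) to 6.37. Igf1 itself was lower in every null pool at its 3 probe sets, with 0.502, 0.684 and 0.728 of the wild type signal, and stayed above background. The difference between the 3' and 5' beta-actin control probe sets, a sign of RNA integrity, ran from 0.65 to 0.80 in wild type and was 0.75, 0.95 and 1.12 on the null arrays. Null replicate 3 thus had both the highest beta-actin value and the lowest Alas2 signal, and the part of RNA integrity was not tested. The pools also differed in signal of sex-linked genes. The Y-linked gene Eif2s3y read -3.57, 6.92 and -0.51 in wild type and 2.32, 7.33 and 6.80 in null pools, above background on 1 wild type and 2 null arrays. Xist, which is transcribed from the inactive X chromosome, read 12.22, 10.38 and 12.28 in wild type and 12.23, -3.92 and 11.91 in null pools at 1427262_at. It was within background in null replicate 2 alone, and among the wild type pools it was lowest in replicate 2. Alas2 lies on the X chromosome, and its signal was the highest of the 6 arrays in wild type replicate 2, the wild type pool with Eif2s3y signal. Among the null pools Alas2 read 7.13 and 6.73 in replicates 2 and 3, where Eif2s3y was above background, and 7.46 in replicate 1. Null replicates 2 and 3 also had the highest beta-actin values, 0.95 and 1.12. With 3 pools of each genotype these orders are a description. The part of sex in the differences was not tested.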

How the data were processed

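Values are those of the deposited series table, read as log2 signal from their range, with no floor. How the authors summarised probes and corrected background is not given in the sources used here. The 64 control probe sets were left out after quantile normalization, leaving 22626 probe sets, of which 20380 were annotated to 1 gene, 691 to several and 1555 to none. Symbols were checked by Entrez identifier against RefSeq (GRCm38.p6); all 7 members matched and 29 single-gene probe sets did not. No filter on level was used. Genotypes were compared with limma 3.58.1 (statmod 1.5.0, R 4.3.3), with genotype as the only term, moderated variances, two-sided tests and Benjamini-Hochberg adjustment over all probe sets, and standard errors and 95% intervals come from that fit. The fit was checked on simulated data, with independent noise and with changes placed only in probe sets above the median level. That check does not cover dim probe sets or effects shared between the probe sets of an array. The number of arrays limits precision, and whether pools share litters is not stated. The members and lists were chosen with earlier results of these data known, and the motifs with the promoter sequences in view.

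All probe sets of the members are named, with the 3 brightest genes of each list where they bear on the members. Genes chosen after their values were seen are Slc25a37, Hmox1, Tfrc, Sptb, Gypc and Gata1, with those within background. Alternatives were the deposited values, median centring, blocks, other variance models, array weights, a filter on background, a pseudocount of 32, leaving out each array, and other background limits.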

Additional observations from a re-analysis of the deposited data

How the results depend on the processing

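Under each of the alternatives that were run, 0 probe sets passed an adjusted p of 0.05 in limma. Alas2 ran from -0.97 to -0.60 and Slc4a1 at 1416464_at from -2.03 (values as deposited) to -0.69 (pseudocount of 32), and the pseudocount also gave -0.42 at 1434502_x_at and -0.20 at Ermap, since an offset shrinks differences of dim probe sets by its construction. The count of member probe sets with all null arrays below all wild type arrays was 4, and was 3 with the filter on background, which removes Ermap. It ran from 4 to 6 with single arrays left out, but fewer arrays separate more easily, so that range is no check on the count. With the highest of the trp control probe sets as background in place of the receptor genes, 8 member probe sets were above it on all null arrays, against 4, and 8 on all wild type arrays, against 6, so that the genotypes no longer differed in this count. The dap, thr, phe and lys controls did not read low and were not used. The replicate numbers were not taken to pair the pools: the deviations from the group means correlated at 0.040, 0.10 and 0.021, although 5 of 6 arrays, wild type replicate 3 being the exception, were closest to their own number in the other genotype, a hint from the data and not from the design. With the replicate number as a block, 0 probe sets passed, and Alas2 differed by -0.79 ± 0.17 (SE) and Slc4a1 at 1416464_at by -1.76 ± 0.11. With the title number as a block 0 passed, with -0.79 ± 0.23 and -1.76 ± 0.20. Below a log2 signal of about 4 readings are not told from background.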

Other observations

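Bacterial control transcripts give a view of each array that does not depend on the tissue. In the values as deposited, the hybridization control cre (3' probe set) read 12.32, 12.18 and 12.39 on the wild type arrays and 12.70, 12.39 and 12.42 on the null arrays, in the order of the replicate numbers. Null replicate 1 was thus the highest array for this control and the lowest by the median of all probe sets, 5.61. The control dap (3' probe set), of the kind that is added as polyadenylated RNA before labelling, read 8.78, 8.23 and 8.47 in wild type and 8.10, 8.30 and 8.96 in null pools. It was lowest in null replicate 1 and highest in null replicate 3. The labels do not say how much control RNA was added.

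The third probe set of the adducin gene Add2 (1451914_a_at) read 2.03, 1.19 and 1.29 in wild type and 4.23, 2.90 and 3.81 in null pools, while the brightest of that gene differed by -0.59 ± 0.36 (SE). Of the 6 readings of 1451914_a_at 1 was above background. A further Add2 probe set (1421975_a_at) differed by 0.95 ± 0.85 and was above background on 1 wild type and 2 null arrays.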
